A study of Aspergillus niger with 24 samples.

Results

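The comparison described here is that of wild-type (WT) Aspergillus niger at day 2 with the same strain at day 1, across all genes of the deposited table. Its members are 6 libraries of the 24 in the series, 3 labelled WT day 2 and 3 labelled WT day 1, chosen by their labels alone. Both groups are hyphae of strain CICC2629 with no introduced gene, from potato dextrose agar kept at 28 °C, and they differ in the labelled day of harvest. The series also holds WT days 3 and 4 and 4 days of a strain of the same background that makes a lipase called TLL. Its stated times of 0, 24, 48 and 72 hours are not tied to the day labels, so only the labels are used. Nothing says whether replicates were separate cultures, so p-values cover the spread between libraries, which may be technical. In the main tests of single genes this spread is pooled over all 24 libraries.

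Aspergillus niger is a filamentous fungus used in industry to make citric acid and secreted enzymes. On a solid medium its spores swell, germinate and put out hyphae that branch into a mycelium, and older parts of the colony form aerial stalks that carry black asexual spores. Potato dextrose agar supplies glucose together with starch from potato. A young colony has nearly all its hyphae in growth, while an older one is a mix of growing tips, older mycelium and developing spore heads. Bulk RNA averages over these, so fewer cells of a kind and less RNA per cell cannot be told apart.

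The table gave 11846 genes in TPM, a transcript abundance per gene length scaled to the same total in every library, which keeps no record of read depth. The genes are known only by ID. Of these IDs 0 were found in the reference table of 14404 genes, so no gene is given a name or a role, the 24 gene lists prepared by name could not be used, and the absence of the lipase gene from WT was not checked. For the same reason only the 2 largest changes each way are given by ID for each comparison. WT day 2 libraries correlated with one another across genes at 0.983 to 0.991 on the log2(TPM + 1) scale. Among WT day 1 libraries, replicates 2 and 3 correlated at 0.990, while replicate 1 correlated with them at 0.923 and 0.924. The median SD of a gene between replicates was 0.166 log2 units at WT day 2 and 0.331 at WT day 1. WT day 1 replicate 1 therefore stands apart from its group. Its highest correlation among the day 1 libraries of both strains was 0.972, with TLL day 1 replicate 3, which correlated with its own group at only 0.920 and 0.949. WT day 1 replicates 2 and 3 correlated with TLL day 1 replicates 1 and 2 at 0.963 to 0.973. Both libraries are used as labelled, and whether either carries a wrong label or was taken at another time was not tested, which bears on every WT day 1 value and on every difference between the strains. Total calls for the WT step and for the difference between strains are also given without them. Some further counts are also given without WT day 1 replicate 1. The rest, with all calls between TLL days, are given only with both libraries.

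Between day 1 and day 2 34.5% of the tested WT genes changed, and the large changes were mostly increases. Of 9558 genes that reached 1 TPM in 3 or more libraries, 2189 were higher at day 2, which is 22.9% of those tested, and 1109 were lower, which is 11.6%. The called genes number 3298 in all (limma on log2(TPM + 1), adjusted p under 0.05). At least 2-fold changes numbered 1183 higher and 366 lower, and at least 8-fold changes 176 higher and 26 lower. All day 2 libraries lay above all day 1 libraries in 25.9% of the genes tested and below them in 12.8%. Groups without overlap were found for 2043 of the called increases and 837 of the called decreases.

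The excess of increases among all called genes depended on how the libraries were scaled. Increases made up 66.4% of the calls with TPM as deposited, 52.7% after median-of-ratios scaling (1954 higher and 1755 lower) and 43.4% after quantile normalization (1705 higher and 2224 lower). The median log2 change of all genes was 0.07 as deposited, -0.04 and -0.13 in the same order. Among changes of at least 8-fold, increases outnumbered decreases under each, with 155 higher and 30 lower after median-of-ratios scaling and 139 higher and 35 lower after quantile normalization. At least 2-fold changes also kept that order, with 1055 higher and 503 lower after median-of-ratios scaling and 902 higher and 604 lower after quantile normalization.

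The number of decreases depended on WT day 1 replicate 1. Without that library 2381 genes were higher and 1959 lower, 602 in place of 366 fell at least 2-fold, and 63 in place of 26 fell at least 8-fold. Without TLL day 1 replicate 3 as well, which enters through the shared spread, 2827 were higher and 2266 lower. A limma fit on the 6 libraries alone, which takes its spread from them only, called 1412 genes higher and 438 lower.

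**Figure D1:**
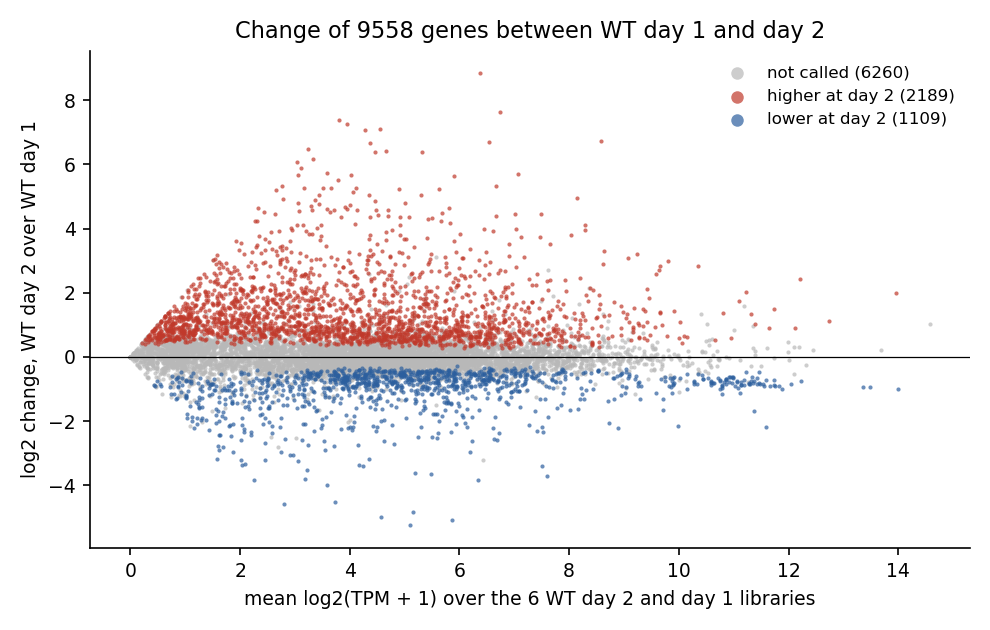
Each point is 1 of the 9558 genes tested, placed by its mean log2(TPM + 1) over the 6 WT libraries and its log2 change, day 2 over day 1. Red points are the 2189 genes called higher, blue points the 1109 called lower and grey points the rest; increases reach further from 0 than decreases, and at the abundant end a band of blue points lies just below 0.

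The direction of change differed between abundance classes, taken from the mean of both group means in TPM. Of the 171 genes with a mean of at least 1000 TPM, 26 were higher and 83 were lower at day 2, and the class had a median log2 change of -0.52. Of the 2570 genes between 1 and 10 TPM, 711 were higher and 237 lower, with a median log2 change of 0.19. The class between 10 and 100 TPM held 989 higher and 588 lower genes, and the class between 100 and 1000 TPM 314 higher and 184 lower ones. Decreases outnumbered increases among genes of at least 1000 TPM also after median-of-ratios scaling (23 higher, 87 lower), after quantile normalization (36 higher, 57 lower), in the 6 libraries alone (21 higher, 34 lower) and without WT day 1 replicate 1 (36 higher, 87 lower). From 10 to 100 TPM the order turned with median-of-ratios scaling (856 higher, 1002 lower), quantile normalization (843 higher, 1094 lower) and without WT day 1 replicate 1 (1033 higher, 1173 lower). From 100 to 1000 TPM it turned with median-of-ratios scaling (273 higher, 285 lower) and quantile normalization (277 higher, 290 lower), and between 1 and 10 TPM it turned only with quantile normalization (486 higher, 668 lower) among these 4 settings.

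The 83 abundant genes that fell had log2 changes between -2.2 and -0.46. Small changes are left out, because only called genes entered the set. The quartiles were -0.89 and -0.72 around a median of -0.82. The 1026 called decreases under 1000 TPM had a like median of -0.80, with quartiles of -1.24 and -0.59. Together the 83 genes held 12.8%, 14.9% and 19.0% of all TPM in WT day 2 replicates 1, 2 and 3, against 22.8%, 31.5% and 31.6% in WT day 1 replicates 1, 2 and 3. The groups did not overlap, and WT day 1 replicate 1 was the day 1 library nearest to day 2. On days outside the comparison, whose libraries entered the choice of these genes only through the filter and the shared estimate of spread, they held 13.3% to 13.9% at WT day 3 and 9.88% to 10.7% at WT day 4. In the TLL strain they held 11.3% to 13.6% at day 2, against 22.7% to 43.5% at day 1. There 81 of the 83 were called lower at day 2, and the 83 had a median log2 change of -1.51, with quartiles of -1.71 and -1.35. Of all 171 genes with a mean of at least 1000 TPM, 92 were called lower in TLL, and 13.6% of all genes were.

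The turnover of the transcript pool was seen in each library. The genes called higher held 32.6%, 30.4% and 25.9% of all TPM in WT day 2 replicates 1, 2 and 3, against 13.8%, 10.0% and 9.78% in WT day 1 replicates 1, 2 and 3. Those called lower held 17.6%, 20.0% and 24.7% at WT day 2 and 30.8%, 43.3% and 43.1% at WT day 1, in the same order of replicates. Because these genes were called on the same libraries, the shares describe how much of the pool moved and add no test. WT day 2 replicate 3 lay closest to day 1, and WT day 1 replicate 1 closest to day 2.

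**Figure D2:**
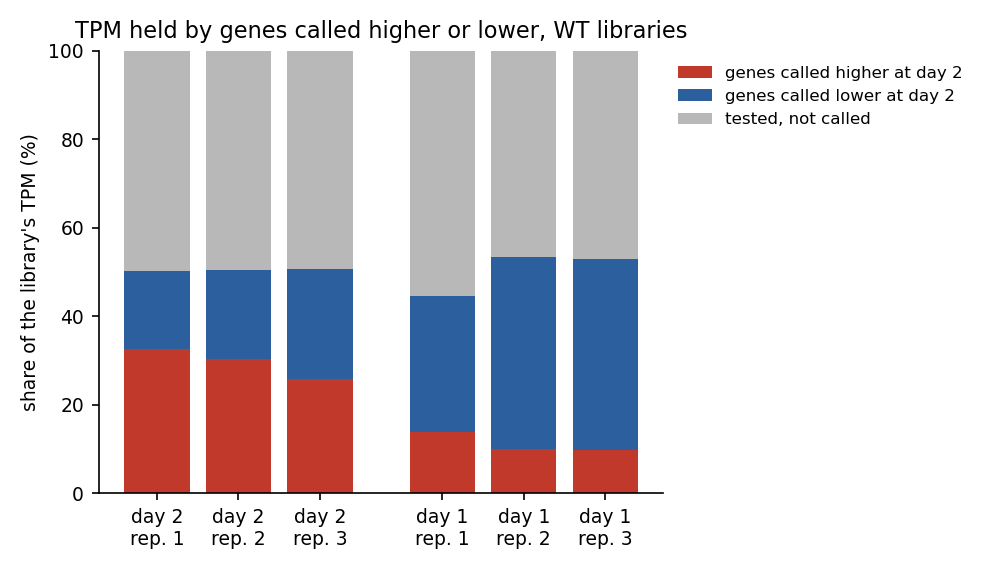
Bars show the share of each library's TPM (%) held by genes called higher at day 2 (red), called lower (blue) and tested but not called (grey), with the 3 WT day 2 libraries left of the 3 WT day 1 libraries. The red part is 25.9% to 32.6% at day 2 and 9.78% to 13.8% at day 1.

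The same order of libraries was seen in many of the single genes. Among the 2189 genes that rose, WT day 2 replicate 3 was the lowest day 2 library, and so the nearest to day 1, in 80.1%. Among the 1109 that fell, WT day 1 replicate 1 was the lowest day 1 library in 74.8%. It was the highest day 1 library in only 47.3% of the genes that rose. WT day 2 replicate 3 was the highest day 2 library in 61.6% of those that fell. Shares over all tested genes are not given. The median log2 step of the genes that fell was -0.45 when the day 2 mean was set against WT day 1 replicate 1, -0.95 against replicate 2 and was lower still against replicate 3. For genes that rose, the 3 day 1 libraries gave similar medians of 1.04, 1.13 and 1.09. What set these libraries apart was not tested.

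More genes reached 1 TPM at day 2, though 3 libraries against 3 cannot give an exact p under 0.1. Read depth is unknown, and whether it bears on these counts was not tested. Genes listed at 0 numbered 2061 in WT day 1 replicate 1 and 1724 and 1725 in replicates 2 and 3. At WT day 2 they numbered 1520 to 1594. At least 1 TPM was reached by 8824, 8747 and 8659 genes in WT day 2 replicates 1, 2 and 3, against 8491, 8347 and 8312 genes in WT day 1. The mean was 8743 ± 82.6 genes at WT day 2 and 8383 ± 94.9 at WT day 1 (SD, n = 3 each), with an exact two-sided permutation p of 0.1 and an adjusted p of 0.15 over 6 library measures. The 100 most abundant genes of a library held 37.4 ± 1.39% of its TPM at WT day 2 and 41.0 ± 0.778% at WT day 1 (SD, n = 3 each; exact permutation p = 0.1, adjusted 0.15). The 10 most abundant held 14.3 ± 0.455% at WT day 2 and 12.6 ± 0.823% at WT day 1 (SD, n = 3 each; exact permutation p = 0.1, adjusted 0.15). So the share of the top 100 was lower at day 2 while that of the top 10 was higher, each without overlap between the groups. The numbers of genes at 10 TPM were also without overlap (p = 0.1), while those at 100 and 1000 TPM overlapped (exact permutation p = 0.3 and 0.8).

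The lists of most abundant genes partly changed hands. Of the 100 genes with the highest mean TPM on each day, 71 were on both lists. Of the 29 that were in the day 2 list alone, 17 were called higher, and of the 29 in the day 1 list alone, 26 were called lower. Within the day 2 list 24 genes were called higher and 41 lower, and within the day 1 list 7 were called higher and 67 lower. The lists and the calls come from the same libraries, so genes on a single list tend to be called its way. These counts describe the lists and add no test. Of the 171 genes with a mean of at least 1000 TPM, 26 were called higher and 83 lower. Among the top 10 of each day, 6 genes were shared.

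Genes switched on were more common than genes switched off. At least 10 TPM in every WT day 2 library and under 1 TPM in every WT day 1 library was found for 25 genes, 0.262% of those tested, and all 25 were called higher. The opposite switch was made by 0 genes, although 69 genes called lower stood under 1 TPM in every day 2 library. Without WT day 1 replicate 1, 44 genes were switched on and 12 switched off. The 25 genes had day 2 means of 13.0 to 189 TPM, with a median of 37.2 TPM. Among all tested genes, 16 were listed at 0 in all WT day 1 libraries and at 1 TPM or more in all WT day 2 libraries, and 1 gene the other way.

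The switched-on genes were not equally lasting. At least 10 TPM in every library was held by 7 of the 25 at WT day 3 and by 18 at WT day 4. In the TLL strain 17 of the 25 made the same switch from day 1 to day 2, which are 68.0% of the 25 and 31.5% of the 54 genes that switched in TLL (0.565% of those tested). Another 4 of the 25 also reached at least 10 TPM in every TLL day 2 library but were not under 1 TPM in every TLL day 1 library.

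The largest increase was that of NRRL3_00134. It stood at 2070.35, 1795.79 and 1478.28 TPM in WT day 2 replicates 1, 2 and 3, against 5.47, 2.54 and 1.52 TPM in WT day 1. Every day 2 library was far above every day 1 library, and the log2 change was 8.84 (SE 0.29, limma adjusted p = 6.75e-15). It averaged 367 ± 3.60 TPM at WT day 3 and 2077 ± 282 TPM at WT day 4 (SD, n = 3 each), so its level dipped at day 3 and returned. In the TLL strain it averaged 1548 ± 212 TPM at day 2 and 2.07 ± 1.61 TPM at day 1 (SD, n = 3 each), a log2 change of 9.09.

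NRRL3_11759 rose next most. It stood at 1664.24, 1652.83 and 1232.54 TPM in WT day 2 replicates 1, 2 and 3, against 15.07, 4.92 and 3.55 TPM in WT day 1, and its log2 change was 7.63 (SE 0.38, limma adjusted p = 2.58e-12). Among the day 1 libraries replicate 1 was the highest, as it was for NRRL3_00134. It stood at 73.19, 82.83 and 68.99 TPM in WT day 3 and averaged 975 ± 83.9 TPM at WT day 4 (SD, n = 3), so it too was lower at day 3 than at days 2 and 4. In the TLL strain the gene averaged 1033 ± 95.4 TPM at day 2 and 7.09 ± 5.84 TPM at day 1 (SD, n = 3 each).

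NRRL3_09101 fell the most. It stood at 4.63, 4.01 and 5.07 TPM in WT day 2 replicates 1, 2 and 3, against 40.33, 502.95 and 448.52 TPM in WT day 1, and its log2 change was -5.25 (SE 0.63, limma adjusted p = 1.48e-06). WT day 1 replicate 1 lay between the day 2 level and the other day 1 libraries. Without it the log2 change was -6.42, while without replicate 2 it was -4.62 and without replicate 3 -4.70. TLL libraries gave 4.01 ± 1.74 TPM at day 2 and 174 ± 91.2 TPM at day 1 (SD, n = 3 each).

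NRRL3_05587 was the other large decrease and the least even between replicates. It stood at 5.48, 7.60 and 16.70 TPM in WT day 2 replicates 1, 2 and 3, against 26.77, 1408.38 and 992.22 TPM in WT day 1, and its log2 change was -5.09 (SE 0.97, limma adjusted p = 0.000361). WT day 1 replicate 1 was close to the highest day 2 library, and without it the log2 change was -6.89. Without replicate 2 or 3 of WT day 1 it was -4.06 or -4.31. In the TLL strain it averaged 8.55 ± 2.11 TPM at day 2 and 116 ± 82.1 TPM at day 1 (SD, n = 3 each), a log2 change of -3.19. These 4 genes were called in all 20 alternative settings. In the fit on the 6 libraries alone the limma adjusted p was 0.0408 for NRRL3_05587 and 0.00655 for NRRL3_09101. It was 2.43e-05 for NRRL3_00134 and 8.6e-05 for NRRL3_11759.

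**Figure D3:**
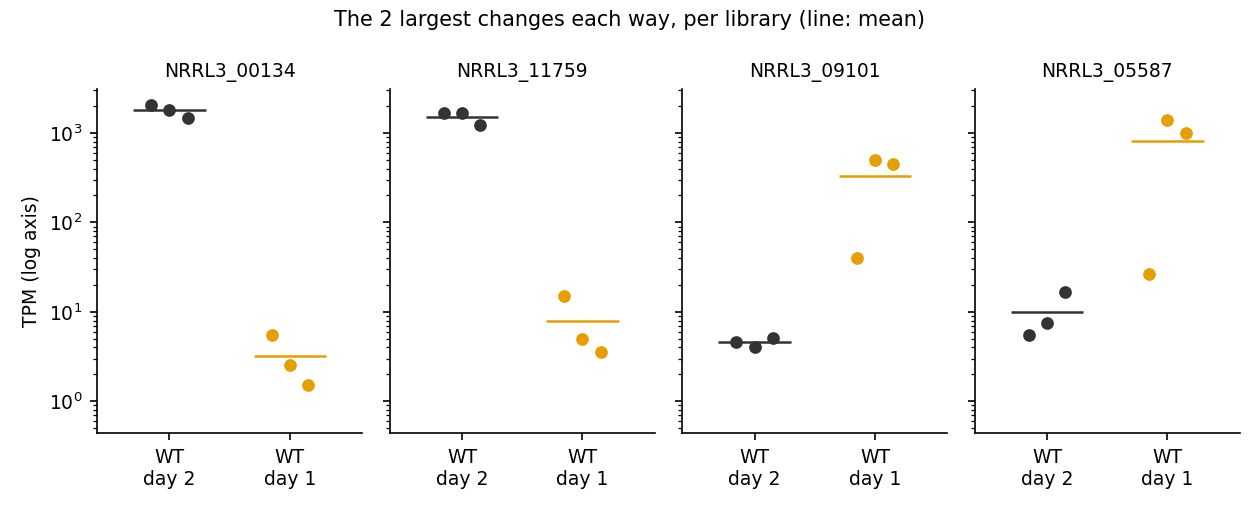
Points are the TPM (log axis) of the 2 genes with the largest increase and the 2 with the largest decrease in each of the 3 WT day 2 libraries (left) and the 3 WT day 1 libraries (right), replicates 1 to 3 from left to right, with a line at the mean. Both genes that fell have WT day 1 replicate 1 far below the other day 1 libraries, at 40.33 and 26.77 TPM.

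The same step in the TLL strain uses other libraries, and there 38.4% of all genes were called higher and 13.6% lower at day 2. Increases in WT were mostly called in TLL too, at every size. Of the 176 genes that rose at least 8-fold in WT, 174 were called higher in TLL, with a median log2 change of 3.92 in WT and 4.59 in TLL. Of the 1006 genes that rose less than 2-fold in WT, 896 were called higher in TLL, with medians of 0.70 in WT and 1.00 in TLL. Decreases were shared less evenly. Of the 743 genes that fell less than 2-fold in WT, 417 were called lower in TLL, and of the 26 that fell at least 8-fold, 21 were. The medians of these 26 were -3.57 in WT and -2.34 in TLL. All limma tests share 1 estimate of each gene's spread over the 24 libraries.

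The genes with the largest WT steps were followed over the later days. The 176 genes that rose at least 8-fold were chosen by their day 1 and day 2 levels in WT, where their median TPM was 77.4 at day 2 and 2.81 at day 1. At WT day 3 their median was 29.4 TPM, and at WT day 4 it was 81.8 TPM. In TLL, whose libraries entered the choice only through the filter and the shared estimate of spread, the medians were 2.10, 81.8, 71.3 and 32.8 TPM at days 1 to 4. The day with the lower median among days 2 to 4 was thus day 3 in WT and day 4 in TLL. The 26 genes that fell at least 8-fold had medians of 2.05, 3.36 and 1.99 TPM at WT days 2 to 4 and of 14.8, 2.39, 0.977 and 1.37 TPM at TLL days 1 to 4. These stayed low in both strains. At day 1 all TLL libraries (9.72 to 17.7 TPM) lay near WT replicate 1 (15.8 TPM) and below WT replicates 2 and 3 (73.7 and 62.5 TPM). The 26 genes too were chosen by their WT levels, which favours genes high in WT day 1. Lower day 1 values in TLL can follow from that choice, so they do not show a likeness to WT replicate 1.

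**Figure D4:**
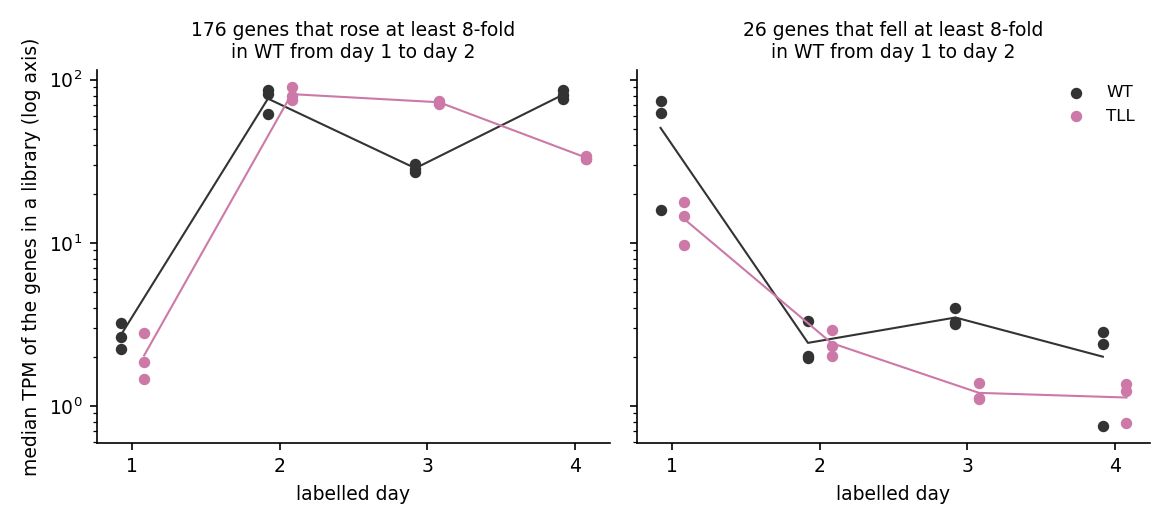
Each point is the median TPM (log axis) in 1 library of the 176 genes that rose (left) or the 26 that fell (right) at least 8-fold in WT from day 1 to day 2, by labelled day, for WT (dark) and TLL (pink), with lines through the mean of the 3 libraries. The risen genes drop to 27.1 to 30.4 TPM at WT day 3 and to 32.6 to 34.3 TPM at TLL day 4.

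Where the strains differed in the step, the WT step was mostly the lower one. The difference between the WT step and the TLL step was called for 911 genes, 9.53% of those tested (limma, adjusted p under 0.05), of which the WT step was lower in 813 and higher in 98. Among the 813, 419 rose in both strains, 306 rose in TLL without a call in WT, 50 fell in WT without a call in TLL, and 27 rose in TLL and fell in WT. Among the 98, 44 fell in TLL without a call in WT, 23 fell in both, 15 rose in both, 11 rose in WT without a call in TLL, and 3 rose in WT and fell in TLL. The median step was lower by 0.20 log2 units in WT. After median-of-ratios scaling this median difference was -0.01, and the WT step was lower in 464 genes and higher in 190. After quantile normalization the median difference turned to 0.05, and the WT step was lower in 409 genes and higher in 250. The 12 libraries of days 1 and 2 alone gave 126 calls, 116 of them lower in WT, without WT day 1 replicate 1 there were 1767, and without TLL day 1 replicate 3 there were 2132.

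Both genes with the lowest WT step relative to TLL had high values in WT day 1 replicates 2 and 3. NRRL3_02996 stood at 44.96, 37.46 and 40.48 TPM in WT day 2 replicates 1, 2 and 3, against 20.28, 976.63 and 758.53 TPM in WT day 1. In TLL it stood at 104.14, 109.06 and 136.35 TPM at day 2, against 12.29, 10.19 and 21.61 TPM at day 1. WT day 1 replicate 1 lay within the TLL day 1 range, and the WT groups overlapped. The difference between the steps was -5.55 on the log2 scale (SE 1.17, limma adjusted p = 0.00538), and it was -7.33 without WT day 1 replicate 1.

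NRRL3_02994 was also high in WT day 1 replicates 2 and 3, at lower levels. It stood at 10.71, 10.41 and 13.82 TPM in WT day 2, against 15.37, 541.33 and 434.27 TPM in WT day 1, and TLL libraries gave 25.1 ± 4.22 TPM at day 2 and 6.52 ± 0.964 TPM at day 1 (SD, n = 3 each). For NRRL3_02994 the WT groups did not overlap. Its WT day 1 replicate 1 lay above every TLL day 1 library, of which the highest stood at 7.59 TPM. Its rise in TLL was not called (limma adjusted p = 0.056), while that of NRRL3_02996 was (limma adjusted p = 0.0053). The difference between the steps was -5.43 for NRRL3_02994 (SE 1.08, limma adjusted p = 0.00337). In the fit on the 12 libraries of days 1 and 2 the limma adjusted p was 0.104 for NRRL3_02996 and 0.0865 for NRRL3_02994.

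NRRL3_06173 rose more in WT. It stood at 74.81, 54.50 and 39.76 TPM in WT day 2, against 0.94, 0.59 and 0 TPM in WT day 1, while TLL libraries gave 12.28, 6.87 and 9.93 TPM at day 2, against 0.50, 1.23 and 1.03 TPM at day 1. The strains overlapped at day 1 and were apart at day 2, and the steps differed by 2.79 (SE 0.36, limma adjusted p = 0.000101). NRRL3_00308 was listed at 0 in all WT day 1 libraries and stood at 37.23, 11.85 and 30.59 TPM in WT day 2. TLL libraries were listed at 0, 13.51 and 0 TPM at day 2, against 0, 0 and 5.09 TPM at day 1. Its limma adjusted p for the difference was 0.044, and it missed the threshold in 16 of 25 alternatives, over which the adjusted p ranged between 0.0063 and 0.33.

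**Figure D5:**
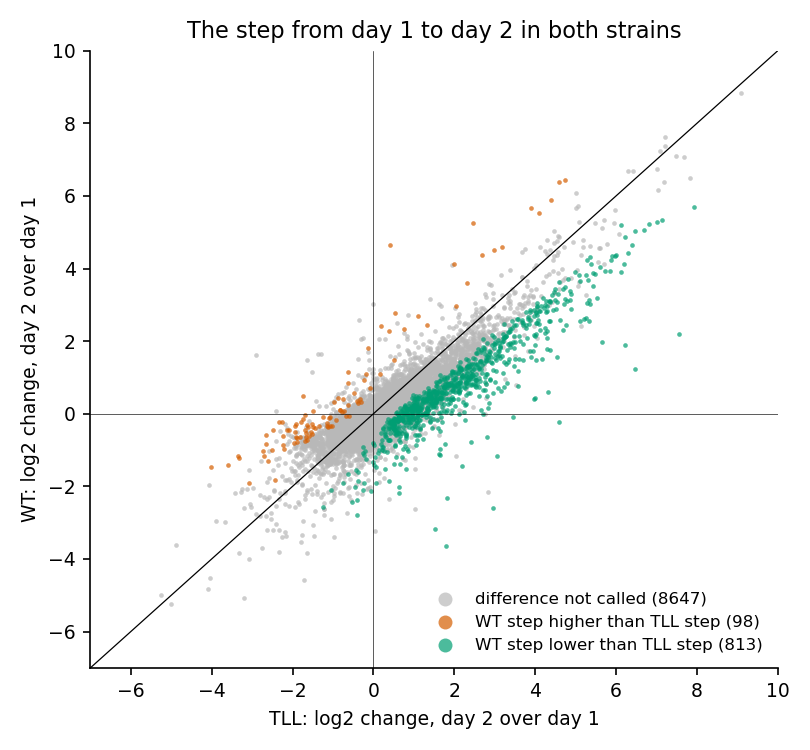
Each point is 1 of the 9558 genes, placed by its log2 change, day 2 over day 1, in WT (vertical) and in TLL (horizontal), with the diagonal where both steps are equal. The 98 genes in orange had a higher WT step, the 813 in green a lower one; most points lie near the diagonal.

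Set beside the later steps of the same strain, the step from day 1 to day 2 called fewer genes. The step from day 2 to day 3 called 53.6% of the genes tested and that from day 3 to day 4 called 53.4%, against 34.5% here. These comparisons share libraries, and the spread between replicates was largest at day 1, so the counts do not rank the sizes of the steps. At least 8-fold increases numbered 176 from day 1 to day 2, 104 from day 2 to day 3 and 103 from day 3 to day 4, and decreases 26, 109 and 126.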

How the data were processed

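Hyphal RNA was sequenced after Illumina protocols, as the labels state. The authors deposited 1 table of TPM values per gene and library. HISAT2, StringTie and Cufflinks are named in the submitters' processing notes without roles or versions, and the table's name refers to RSEM. The genome build is not given in the sources used here. Read depth cannot be had from such values, so intervals for counting error could not be given. All 24 columns matched a label, 0 columns belonged to no sample, and 0 of 276 library pairs were identical.

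Values were transformed to log2(TPM + 1), which understates changes of low genes, and genes that reached 1 TPM in 3 or more libraries were kept. A mean for each of 8 groups was fitted to all 24 libraries in limma 3.58.1 (R 4.3.3, 16 residual degrees of freedom) with moderation and a mean-variance trend. Tests were two-sided with Benjamini-Hochberg adjustment over the 9558 genes. IDs named are the 2 largest changes each way among called genes whose higher group averaged 10 TPM or more and whose libraries did not overlap. For the difference between strains, the days had to be apart in at least 1 strain. The comparison, lists and tests were chosen with earlier results of these data known. On simulated data for 9558 genes with equal spread in all groups, the fit recovered 71% of 2-fold and 94% of 4-fold changes between the WT days. Of these calls 2.94% were false. For the difference between strains it recovered 43% and 86%. In the data the median SD between replicates was 0.331 at WT day 1 and 0.166 at WT day 2, so these rates may not hold there. Figures used matplotlib 3.10.9 in Python 3.11.15.

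Alternatives were other pseudocounts, filters and scalings, a replicate block, weights for libraries or groups, moderation without trend, fits on fewer groups, and leaving out each library. Switches and abundance classes without some libraries or under other scalings were added after seeing the data.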

Additional observations from a re-analysis of the deposited data

Results flagged for a closer look

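The step from day 1 to day 2 differed between WT and TLL in 911 genes by a test of the difference itself. For the genes named for it, the limma adjusted p of that difference was 0.044 for NRRL3_00308, 0.000101 for NRRL3_06173, 0.00538 for NRRL3_02996 and 0.00337 for NRRL3_02994. For NRRL3_02996 and NRRL3_02994, WT day 1 replicate 1 stood at 20.28 and 15.37 TPM beside 758.53 TPM or more and 434.27 TPM or more in the other WT day 1 libraries. Groups of 3 libraries were too small to look for single outlying values by a fixed rule.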

How the results depend on the processing

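The 3298 calls between WT day 2 and day 1 lay between 2371 and 4340 when single libraries of these 2 groups were left out. Other pseudocounts, filters and scalings, no trend, the 12 WT libraries alone, and a fit without WT day 3 and TLL day 4 gave 2829 to 3929. The calls became 2182 with 1 weight per group, 1850 in the 6 libraries alone, 5093 without both WT day 1 replicate 1 and TLL day 1 replicate 3, and 6297 with library weights. The library weights did not converge and gave TLL day 1 replicate 2 a weight of 167, so that count is of little use. The 911 calls for the difference between strains became 4724 with library weights, 214 with 1 weight per group, 126 in the 12 libraries alone, 554 without WT day 3 and TLL day 4, and 2942 without WT day 1 replicate 1 and TLL day 1 replicate 3. Leaving out single libraries gave 489 (without WT day 2 replicate 3) to 2132 (without TLL day 1 replicate 3), with 578 without TLL day 1 replicate 2 and 553 without TLL day 2 replicate 2. The spread at day 1 is wider than the pooled spread, by the values given for the replicates, so SE and adjusted p of the fit on all libraries may be too small. With the replicate block, 3321 genes were called between the days and 905 for the difference, and the call of NRRL3_00308 was lost (adjusted p = 0.0523). Same-numbered WT libraries had deviations correlated at 0.174, -0.034 and 0.163, and not every library correlated best with its own number, so the numbers are not taken to pair the samples. Depth is unknown, so the counting error of low values could not be estimated.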

Other observations

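The next ID of a called gene changed the same way more often than genes did in general, though for most called genes it did not. Of 1882 genes that rose from WT day 1 to day 2 and whose next ID was tested, 36.7% had a next ID that also rose, where 22.9% of all genes rose. Of 985 that fell, 17.3% had a next ID that fell, where 11.6% of all genes did. Runs of at least 4 consecutive IDs that all changed at least 4-fold the same way numbered 4 among increases, with 18 genes, and 1 among decreases, with 5 genes. NRRL3_00134 is the first of 6 such IDs in a row, and NRRL3_09101 lies in the run of 5 that fell. In the TLL strain all 18 and all 5 were called the same way. So were 252 of the 258 WT increases of 4- to 8-fold and 174 of the 176 of at least 8-fold. The 18 are thus near the share of all increases of that size. For WT decreases of these sizes, 45 of 77 and 21 of 26 were called lower in TLL. These runs were looked for after the data were seen, and the files do not say whether the order of IDs follows the genome.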
